A study of Mus musculus with 104 samples.

Results

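Liver and heart of mice at postnatal day (P) 20 were compared CpG by CpG. The comparison covered every CpG that was measured in both tissues with at least 3 values on each side, which was 34267 of the 41242 CpGs found in both the liver and the heart table and of the 91022 CpGs found in any tissue of the time course. DNA methylation was measured by reduced representation bisulfite sequencing (RRBS), which reads CpGs close to the CCGG sites cut by the enzyme MspI, and each value is the percentage of reads of a CpG that were methylated in a library. The study followed methylation in whole liver, heart and muscle through the weeks after birth. The groups used were mice labelled C57BL/6, which are C57BL/6J in the study's methods, with no genetic change and no treatment, namely P20 liver (n = 5 libraries) and P20 heart (n = 5). For other ages of the same tissues liver had 4 libraries each at embryonic day (E) 18, P1 and P5 and 3 each at P10 and P15, heart had 4 each at P1 and P5 and 5 at P15, and muscle had 4 at P20 and, for the plots by age, 4 each at E18, P10 and P15, 5 at P1 and 3 at P5. The labels give no animal for each library, so a p-value measures the spread between libraries only. Each library came from a whole organ, so a different mix of cells and a different state of the same cells cannot be told apart.

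Methylation of cytosine at CpGs is written by DNA methyltransferases, copied at cell division and removed by dilution or by TET enzymes. In differentiated cells most CpGs outside of CpG islands are methylated, while promoters rich in CpGs and active enhancers are mostly free of methylation, and many enhancers and gene bodies carry a pattern that is particular to a cell type. Hepatocytes, the main cells of liver, make plasma proteins, urea, bile acids and glucose under transcription factors such as HNF4A and the FOXA family. Cardiomyocytes fill most of the volume of the heart, and their contractile apparatus is under GATA, MEF2, NKX2-5, TBX and TEAD factors. No gene expression was measured here.

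The libraries differed in completeness. The share of the 34267 CpGs without a value was 0.190% to 61.1% in the liver libraries and 0.303% to 69.5% in the heart libraries, and 2440 CpGs had a value in all 10. The tables keep a CpG of a library only above a read minimum and give no read counts, so how many reads lie behind each value is unknown. Because each table also leaves out CpGs that were low in all of its own libraries, a CpG that stayed low throughout one tissue could not enter the comparison. There were 29017 CpGs in the liver table alone, with a median of 68.4% in P20 liver, and 12278 in the heart table alone, with a median of 26.0% in P20 heart. Each table also leaves out CpGs missing in many of its libraries, so how many were absent for a low level is unknown. Pearson correlations across the 2440 CpGs, which are not independent replicates, were 0.850 to 0.932 between liver libraries, 0.876 to 0.914 between heart libraries and 0.807 to 0.893 between a liver and a heart library.

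Short stretches of DNA differed strongly between the tissues. Tested CpGs with gaps of at most 200 bp were joined into 3975 regions of at least 3 CpGs, and the mean methylation of a region was compared with limma. To be called, a region needed a difference over 5 percentage points and a p, adjusted by the Benjamini-Hochberg method, no higher than 0.1. Of the 3975 regions 575 (14.5%) were called, 444 (11.2%) higher in liver and 131 (3.3%) higher in heart. At the regions higher in liver the median level was 63.0% in liver and 28.9% in heart, and at those higher in heart it was 29.0% in liver and 60.9% in heart. In 446 of the 575 the liver and heart libraries did not overlap at all, as in 15.1% of all regions. The share of called regions that were higher in liver was 77.2%, and 58.7% once all libraries had been set to the same mean, which moved the median difference over all regions from 2.63 to -1.34 points.

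**Figure D1:**
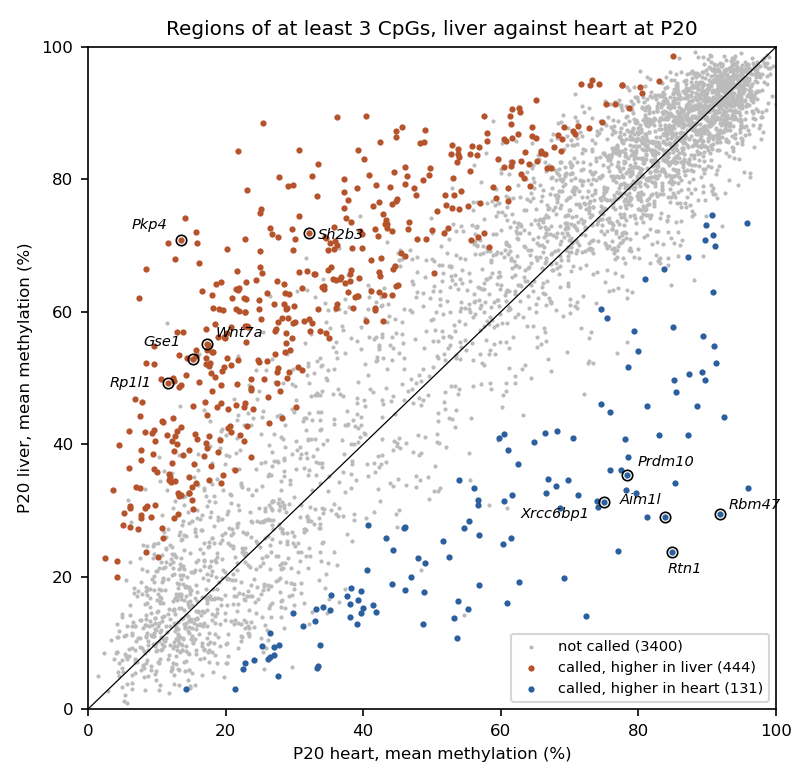
Mean methylation of 3975 regions in P20 heart (x axis, %) against P20 liver (y axis, %), each a mean over the libraries with a value. Grey points were not called, the 444 orange points were called higher in liver and the 131 blue points higher in heart, and the 10 circled regions carry the name of the gene in or near them.

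The 5 called regions with the most called CpGs in each direction are shown first, since the sequence tells what was read. Each is given on the plus strand of mm9 with 15 bases on either side, and capitals mark the CpGs that were tested. Regions higher in liver, which lie near Pkp4, in introns of Wnt7a, Gse1 and Rp1l1 and in a coding exon of Sh2b3, read as follows.
Pkp4, chr2:59245613-59245777: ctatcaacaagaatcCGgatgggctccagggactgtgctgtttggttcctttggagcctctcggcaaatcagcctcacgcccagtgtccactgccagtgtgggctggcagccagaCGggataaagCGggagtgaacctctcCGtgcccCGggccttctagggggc
Wnt7a, chr6:91350529-91350698: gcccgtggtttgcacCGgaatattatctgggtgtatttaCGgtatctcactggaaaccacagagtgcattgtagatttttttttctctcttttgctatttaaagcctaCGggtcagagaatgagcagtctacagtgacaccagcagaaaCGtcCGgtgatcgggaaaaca
Gse1, chr8:123056811-123056906: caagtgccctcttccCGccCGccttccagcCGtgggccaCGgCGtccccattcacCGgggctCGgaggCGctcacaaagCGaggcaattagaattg
Rp1l1, chr14:64630615-64630808: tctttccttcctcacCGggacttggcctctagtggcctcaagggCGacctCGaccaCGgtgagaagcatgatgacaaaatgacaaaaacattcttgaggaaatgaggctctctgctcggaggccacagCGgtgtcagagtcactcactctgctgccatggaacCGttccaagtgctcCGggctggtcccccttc
Sh2b3, chr5:122278641-122278719: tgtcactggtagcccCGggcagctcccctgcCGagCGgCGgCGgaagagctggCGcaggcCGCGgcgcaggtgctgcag

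Regions higher in heart lie in a coding exon of Prdm10, in introns of Rtn1 and Rbm47, in the promoter of Aim1l and far from genes nearest to Xrcc6bp1.
Prdm10, chr9:31123760-31123919: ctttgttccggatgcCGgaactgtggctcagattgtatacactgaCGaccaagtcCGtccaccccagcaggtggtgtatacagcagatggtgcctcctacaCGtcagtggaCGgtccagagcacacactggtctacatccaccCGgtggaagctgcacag
Rtn1, chr12:73387033-73387177: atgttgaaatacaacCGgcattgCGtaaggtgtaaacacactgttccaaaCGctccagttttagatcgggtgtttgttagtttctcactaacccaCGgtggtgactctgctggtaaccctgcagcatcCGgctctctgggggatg
Rbm47, chr5:66444656-66444731: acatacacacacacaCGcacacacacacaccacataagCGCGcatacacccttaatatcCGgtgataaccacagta
Aim1l, chr4:133623435-133623496: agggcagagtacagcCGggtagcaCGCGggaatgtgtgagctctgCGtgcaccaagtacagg
Xrcc6bp1, chr10:126128702-126128776: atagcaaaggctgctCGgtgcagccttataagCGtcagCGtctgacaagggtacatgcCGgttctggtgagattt

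The region near Pkp4, which encodes a plakophilin of cell junctions, lay 65374 bp from the nearest coding transcription start. Its mean over 5 CpGs was 74.7%, 77.8%, 76.8% and 54.1% in liver libraries 2 to 5 and 8.90%, 13.1%, 18.9% and 13.3% in heart libraries 1, 2, 3 and 5. The lowest liver value was thus far above the highest heart value, and the difference was 57.3 percentage points (SE 5.75, adjusted p = 0.000837). In the intron of Wnt7a, which encodes a secreted WNT ligand, liver values were 36.4%, 63.9%, 51.5%, 73.5% and 50.6% and heart values were 27.5%, 13.9%, 18.6%, 19.3% and 7.33%. Although liver libraries were spread widely there, none came down to a heart value, and the difference was 37.9 points (SE 6.48, adjusted p = 0.00493). In the intron of Gse1 the 4 liver values were 49.9% to 59.2% and the 4 heart values 8.29% to 24.4%, a difference of 37.6 points (SE 4.75, adjusted p = 0.00228).

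In the intron of Rp1l1, a gene known from photoreceptors, liver libraries had 52.2%, 44.1%, 65.2%, 32.4% and 52.5% and heart libraries had 10.5%, 16.8%, 1.92%, 9.87% and 19.2%, with a difference of 37.6 points (SE 5.78, adjusted p = 0.00296). The exon of Sh2b3, an adaptor protein that dampens cytokine signalling, had values in 3 libraries of each tissue. They were 72.1%, 65.7% and 77.8% in liver and 43.4%, 24.6% and 28.6% in heart, with a difference of 39.7 points (SE 6.45, adjusted p = 0.00966). The means of these 5 regions were 11.7% to 32.2% in heart and 49.3% to 71.9% in liver, and within each region the libraries did not overlap.

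Among the regions higher in heart, the coding exon of Prdm10, a zinc finger transcription factor, had a value in all 10 libraries and 6 of its 6 CpGs were called. Liver libraries had 29.6%, 38.2%, 28.2%, 35.1% and 45.8% and heart libraries 81.1%, 78.3%, 79.5%, 84.1% and 68.7%. The highest liver library thus stayed well below the lowest heart library, and the means differed by -43.0 points (liver minus heart, SE 4.33, adjusted p = 0.000436). In an intron of Rbm47, an RNA-binding protein of endoderm-derived epithelia, heart was nearly fully methylated, with 89.5%, 99.1%, 89.3% and 89.5%, whereas liver had 20.0%, 46.6%, 17.1%, 31.8% and 32.1%. This was the largest difference of the 10 regions, with -62.3 points (SE 5.91, adjusted p = 0.000436). The intron of Rtn1, a reticulon of the endoplasmic reticulum, had 18.9% to 36.3% in 5 liver libraries and 76.7% to 89.7% in 3 heart libraries, with a difference of -61.1 points (SE 5.35, adjusted p = 0.000436).

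The promoter region of Aim1l, 887 bp from its start, had 13.7%, 41.0%, 22.2% and 39.4% in liver and 82.6%, 77.3%, 77.7% and 97.9% in heart (difference -54.8 points, SE 7.25, adjusted p = 0.00276). The region nearest to Xrcc6bp1, 209666 bp away from the nearest coding start, had 18.4% to 50% in 4 liver libraries and 67.6% to 85.0% in 5 heart libraries (difference -43.7 points, SE 6.44, adjusted p = 0.00306). All 10 regions kept their call with each library left out in turn.

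**Figure D2:**
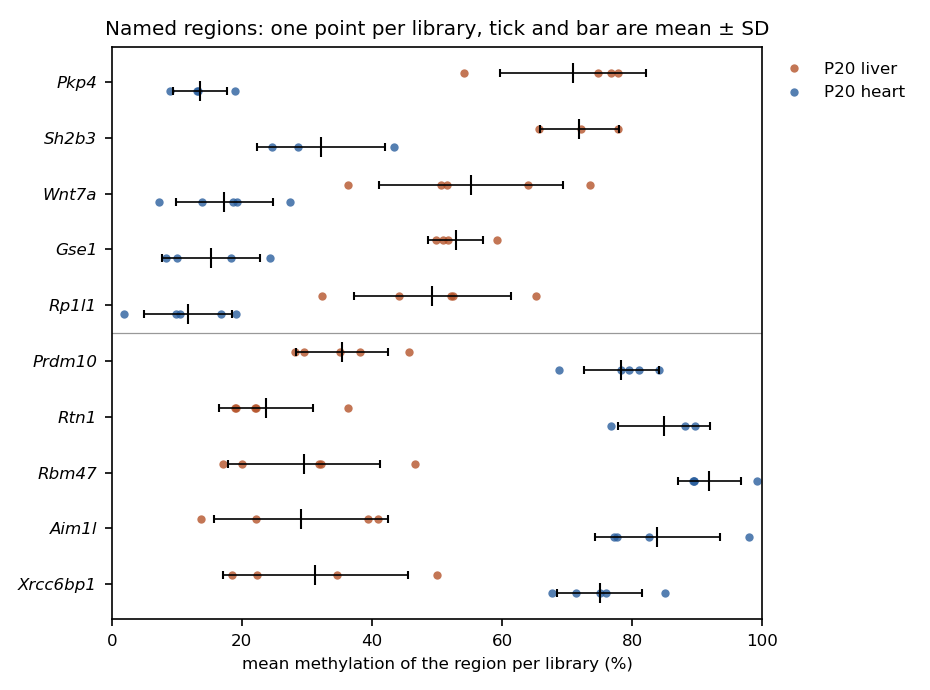
Mean methylation per library (x axis, %) of the 10 named regions, with a point for each P20 liver (orange) and P20 heart (blue) library and black ticks and bars for mean ± SD. The liver and heart points are apart in every region, with liver higher in the upper 5 and lower in the lower 5.

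At single CpGs the same comparison called 2224 of 34267 (6.49%), 1705 (4.98%) higher in liver and 519 (1.51%) higher in heart. Differences over 30 points made up 1355 of the former and 432 of the latter. At the CpGs called higher in liver the medians were 67.2% in liver and 24.8% in heart, and at those called higher in heart they were 28.8% and 74.8%. Over all CpGs tested the median difference was 2.69 points. The number of calls was 1090 without liver replicate 3, 1390 without liver replicate 5, 1291 without heart replicate 2, 1579 to 2096 without any other single library and 1610 without the 3 libraries that lacked the most values. On a logit scale 25 CpGs were called. Of 51 CpGs chosen by the naming rule, 49 lost their call on that scale and those of Rp1l1 and Fcrla kept it. With equal replicate numbers fitted as blocks, 0 CpGs were called and all 51 lost their call. The labels do not say whether equal numbers share an animal. The single-CpG calls and list counts that follow are from fits without blocks unless a block is named. Genes marked below as chosen after their values were seen were not refitted singly, except Tnni3, whose CpG is that of Tnnt1.

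Of the called CpGs with a value in all 10 libraries, 97 had no overlap between the tissues, as did 5.25% of all CpGs with 10 values, and 76 of the 97 were higher in liver. Of these, leaving out chromosome 18, the one with the largest difference higher in liver was in the intron of Rp1l1 described above, at position 64630671 of chromosome 14, where liver had 75%, 41.2%, 81.0%, 25% and 66.7% and heart had 0%, 7.89%, 0%, 0% and 0% (difference 56.2 points, SE 9.67, adjusted p = 0.0139). Next came a CpG 23355 bp from the start of Id2, an inhibitor of helix-loop-helix transcription factors, with 68.4% to 93.3% in liver and 2.70% to 41.9% in heart. A CpG 22250 bp from Casz1, a zinc finger factor needed for heart development, had 45.5% to 87.9% in liver and 0% to 33.3% in heart. A CpG in a coding exon of Kcnj12, an inward rectifier potassium channel of cardiomyocytes, had 89.7% to 100% in liver, while heart libraries 1 to 4 had 40.0% to 46.2% and heart library 5 had 81.8%. CpGs in introns of Cdh6, Tanc1, Fcrla and Shroom3 and near Tcl1b1 and Fbn1, the gene of fibrillin in connective tissue, had differences of 41.2 to 47.9 points.

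In the other direction the largest difference among CpGs with 10 values was in Asl, which encodes argininosuccinate lyase of the urea cycle. At this CpG, in a non-coding exon or UTR 837 bp from a transcription start, liver had 40.0%, 42.4%, 56.8%, 25% and 32.3% and heart had 96.2%, 71.9%, 93.3%, 88.2% and 100% (difference -50.6 points, SE 7.02, adjusted p = 0.00847). A CpG in an intron of Aldh2, the mitochondrial aldehyde dehydrogenase that clears acetaldehyde, was 7.14% to 15.3% in liver and 30.8% to 59.3% in heart. In the promoter of Obsl1, a cytoskeletal adaptor related to obscurin, liver had 0% to 15% and heart 39.3% to 52.6%. Other CpGs were in Prdm10, Mag, Vps4b and Adamts2 and in intergenic sequence 44879 bp from Dact1, 320575 bp from Rragc and 303956 bp from Zfp703, with differences of -30.3 to -49.8 points. The call of the last of these was lost without any of 7 libraries (liver 2, 3 and 5, and heart 1, 2, 4 and 5), with adjusted p of 0.102 to 0.130, while the other 19 kept theirs.

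Most of the called CpGs at genes of liver function were lower in liver. Within 10 kb of 81 genes of hepatocyte function found in the annotation, 81 CpGs at 37 of them were tested, of which 10 were called higher in heart and 1 higher in liver, against 1.51% and 4.98% of all CpGs. The median difference of this list was 0.737 points, beside 2.69 over all CpGs, so the calls sat at a minority of its CpGs. For 25 liver transcription factors, 6 of 50 tested CpGs at 16 genes were called higher in heart and 0 higher in liver, with a median difference of -2.25 points. The sequences around the leading CpGs of those genes, 30 bases before and after, are given on the plus strand of mm9 with tested CpGs in capitals.
Hnf4a, chr2:163364595-163364656: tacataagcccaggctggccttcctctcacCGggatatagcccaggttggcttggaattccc
Foxa3, chr7:19608372-19608433: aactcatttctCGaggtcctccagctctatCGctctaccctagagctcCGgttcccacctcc
Klf15, chr6:90416976-90417037: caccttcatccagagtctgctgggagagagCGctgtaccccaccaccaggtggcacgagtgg
Itih1, chr14:31756378-31756439: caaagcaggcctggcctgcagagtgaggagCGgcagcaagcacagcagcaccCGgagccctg
Trf, chr9:103130180-103130241: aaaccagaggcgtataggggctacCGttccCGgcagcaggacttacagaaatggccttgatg
Ass1, chr2:31330386-31330447: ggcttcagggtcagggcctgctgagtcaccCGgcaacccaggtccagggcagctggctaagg

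Hnf4a encodes the nuclear receptor that holds the hepatocyte programme together. Its called CpG, in an intron and 1870 bp from the nearest transcription start, had 15.8%, 27.3% and 40.0% in 3 liver libraries and 93.1%, 85.7% and 80% in 3 heart libraries (difference -58.6 points, SE 8.16, adjusted p = 0.0156). Itih1 encodes a heavy chain of a plasma protease inhibitor, and 2 of its 4 tested CpGs were called. The one with the larger difference, in a coding exon 54 bp from the nearest start, had 6.25%, 55.8%, 16.7% and 29.6% in liver and 93.1%, 93.6%, 86.7% and 78.6% in heart (difference -60.9 points, SE 9.99, adjusted p = 0.0159). At Trf, the gene of transferrin, the plasma carrier of iron, liver libraries were close together with 17.6%, 16.1%, 20.0% and 19.2% and heart had 93.8%, 87.5% and 43.8% (difference -56.7 points, SE 11.3, adjusted p = 0.0356). Ass1, which acts in the urea cycle just before Asl, had 14.8% to 42.9% in 4 liver and 70.0% to 93.8% in 3 heart libraries (difference -49.9 points, SE 8.95, adjusted p = 0.0255).

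Foxa3, a pioneer factor of endoderm, had 2 called CpGs of 8 tested. The one with the larger difference, 484 bp into the gene, had 0%, 12.5%, 9.38%, 0% and 16.3% in liver and 57.1%, 15.1%, 60.0%, 29.4% and 30% in heart, so that 1 heart library lay within the liver range (difference -30.7 points, SE 8.55, adjusted p = 0.0776). In the coding exon of Klf15, a factor of amino acid and glucose metabolism that is active in liver and in heart, 4 liver libraries had 21.3% to 30.3% and liver library 1 had 80%, against 89.2%, 100% and 90.9% in heart (difference -56.2 points, SE 12.5, adjusted p = 0.0437). Downstream of Nr0b2, the repressor of bile acid synthesis, liver had 0%, 5.26% and 5.00% and heart 39.1%, 23.8% and 46.2% (difference -32.9 points, SE 7.59, adjusted p = 0.0657). The other genes of these lists with a call, chosen for mention after their values were seen, were C3, whose CpG lies nearest to the start of its neighbour Tnfsf14 (20.3% in liver, 68.5% in heart), Pck1 of gluconeogenesis (18.7% and 63.3%), Rxra (15.4% and 45.5%) and, in the opposite direction, Sds, the serine dehydratase of liver, with 48.6% in liver and 5.34% in heart.

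The hepatocyte count of 10 was 5 without heart replicate 1 and 6 without liver replicate 5, and the 1 CpG called higher in liver became 3 without liver replicate 2 and 2 without heart replicate 3 or heart replicate 4. The count of 6 for liver transcription factors was 1 without liver replicate 3, 2 without liver replicate 5 or heart replicate 1, and 3 without liver replicate 2, heart replicate 2 or heart replicate 3, while the 0 in the other direction became 1 without liver replicate 4 or heart replicate 4. The calls of Asl, Ass1, Itih1 and Hnf4a held in every one of these fits. Those of Trf, Klf15, Nr0b2 and Foxa3 were lost without some libraries, with adjusted p up to 0.117, 0.141, 0.188 and 0.157. For Trf these were liver 3, heart 1 and heart 2, and for Klf15 liver 3, liver 5 and heart 1, 2 and 3. For Nr0b2 they were liver 3, 4 and 5 and heart 1 and 3, and for Foxa3 each of the 5 liver libraries and heart 1 and 3.

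Genes of cardiac contraction showed the opposite picture. Of 154 tested CpGs at 43 of 72 genes of contraction and conduction, 20 were called higher in liver and 0 higher in heart, against 4.98% and 1.51% of all CpGs, and the list had a median difference of 9.28 points, with medians of 70.3% in liver and 45.3% in heart. The 20 calls make up 12.99% of the list. The calls fell at 12 genes. For 37 cardiac transcription factors, 195 CpGs at 27 genes were tested, of which 21 were called higher in liver and 2 higher in heart, together 11.8% beside 6.49% of all CpGs, with a median difference of 5.31 points. Windows around leading CpGs of this kind were as follows.
Rbm20, chr19:53913563-53913624: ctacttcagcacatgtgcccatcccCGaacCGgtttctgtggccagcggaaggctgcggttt
Cacna1c, chr6:118817529-118817590: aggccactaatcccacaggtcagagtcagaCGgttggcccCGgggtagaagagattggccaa
Ckm, chr7:19996156-19996217: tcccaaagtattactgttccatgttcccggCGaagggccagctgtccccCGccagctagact
Prdm16, chr4:153955374-153955435: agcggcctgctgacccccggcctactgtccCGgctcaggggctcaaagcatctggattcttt
Tead1, chr7:119968944-119969005: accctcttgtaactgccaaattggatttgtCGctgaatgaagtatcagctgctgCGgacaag

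Rbm20, which steers splicing of titin and other sarcomere transcripts, had 4 called CpGs of 16 tested, and the leading one, in an intron, had 88.9%, 78.8% and 67.7% in liver and 54.3%, 36.4%, 27.8% and 26.7% in heart (difference 42.2 points, SE 8.62, adjusted p = 0.0384). Cacna1c, the pore of the cardiac L-type calcium channel, had 3 called CpGs of 17, led by one with 94.1%, 81.6%, 76.5% and 76.5% in liver and 25.8%, 33.3% and 46.2% in heart (difference 47.1 points, SE 7.36, adjusted p = 0.017). At both of these leading CpGs, which were picked for their large difference, every liver library with a value lay above every heart library with a value. Most tested CpGs of both genes were not called. In the promoter of Ckm, the muscle creatine kinase, 257 bp upstream of the start, liver had 91.7%, 90.9%, 80% and 82.4% and heart had 59.0%, 38.6% and 28.6% (difference 44.2 points, SE 8.09, adjusted p = 0.0273). Downstream of Ryr2, the calcium release channel of the sarcoplasmic reticulum, all 10 libraries had a value, with 25%, 42.3%, 24.3%, 31.8% and 38.9% in liver and 9.38%, 0%, 10.0%, 12.5% and 0% in heart (difference 26.1 points, SE 5.17, adjusted p = 0.0231).

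The remaining genes of the list with a call, named after their values were seen, were Nppa, Tnni3, Myl2, Ldb3, Rbm24, Synpo2l, Xirp1 and Eno3. The promoter CpG of Nppa, the atrial natriuretic peptide, had 80.6% ± 14.7 (SD, n = 5) in liver and 29.1% ± 18.8 (SD, n = 4) in heart. The promoter CpG of Tnni3, cardiac troponin I, had 49.4% ± 14.2 (SD, n = 4) in liver and 12.5% ± 15.6 (SD, n = 3) in heart, and it also counts for Tnnt1 next to it. This call was lost without liver 2, 3 or 4 or heart 1, 2 or 4 (adjusted p up to 0.253). Near Myl2, the ventricular myosin light chain, the levels were 88.3% ± 10.4 (SD, n = 3) and 52.7% ± 14.6 (SD, n = 4). Ldb3 of the Z-disc had 71.2% in liver and 33.4% in heart, and Rbm24, a splicing factor of striated muscle, had 91.3% and 44.6%.

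Among cardiac transcription factors Prdm16 stood first with 7 called CpGs of 39 tested, all higher in liver and spread over its introns. Its leading CpG had 64.7%, 97.1%, 66.7% and 85.7% in liver and 6.90%, 7.41%, 29.4% and 27.3% in heart (difference 60.8 points, SE 9.03, adjusted p = 0.0126). Tead1, the nuclear partner of YAP in Hippo signalling, had 3 called CpGs of 8, led by one with 20.0%, 61.9%, 47.4% and 57.1% in liver and 15%, 0% and 0% in heart (difference 41.6 points, SE 10.4, adjusted p = 0.0727). An intron of Gata6, a factor of heart and of endoderm, had 3 called CpGs of 7, led by one with 43.8%, 64.5%, 100% and 80.8% in liver and 41.7%, 28.6%, 9.52% and 9.09% in heart (difference 50.05 points, SE 12.2, adjusted p = 0.06). Esrrb, an orphan nuclear receptor, had 2 called CpGs of 8, with 65.0% ± 15.04 (SD, n = 4) in liver and 28.5% ± 7.69 (SD, n = 3) in heart at the leading one (adjusted p = 0.0681). The CpGs that went the other way, named after their values were seen, were in introns of Tbx5, with 1.14% in liver and 41.6% in heart, and of Hand1, with 35.2% and 69.9%, both genes of heart development.

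The count of 20 for contraction was 10 without liver replicate 3, 12 without heart replicate 2 and 13 without liver replicate 5 or heart replicate 1, and 1 CpG was called higher in heart without heart replicate 3. The count of 21 for transcription factors was 9 without liver replicate 3, heart replicate 1 or heart replicate 2, 10 without liver replicate 5 and 12 without heart replicate 3, and the 2 calls in the other direction became 1 without liver replicate 4 or 5 or heart replicate 1 or 4. The calls of Cacna1c, Ckm, Ryr2 and Prdm16 held in each of these fits. That of Rbm20 was lost without liver 2 (adjusted p = 0.104) or liver 3 (adjusted p = 0.128), that of Tead1 without liver 2, 3 or 5 or heart 1, 2 or 3 (adjusted p up to 0.194), that of Gata6 without liver 3 or 5 or heart 2, 3 or 4 (up to 0.146) and that of Esrrb without liver 3, 4 or 5 or heart 1, 2 or 5 (up to 0.174).

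**Figure D3:**
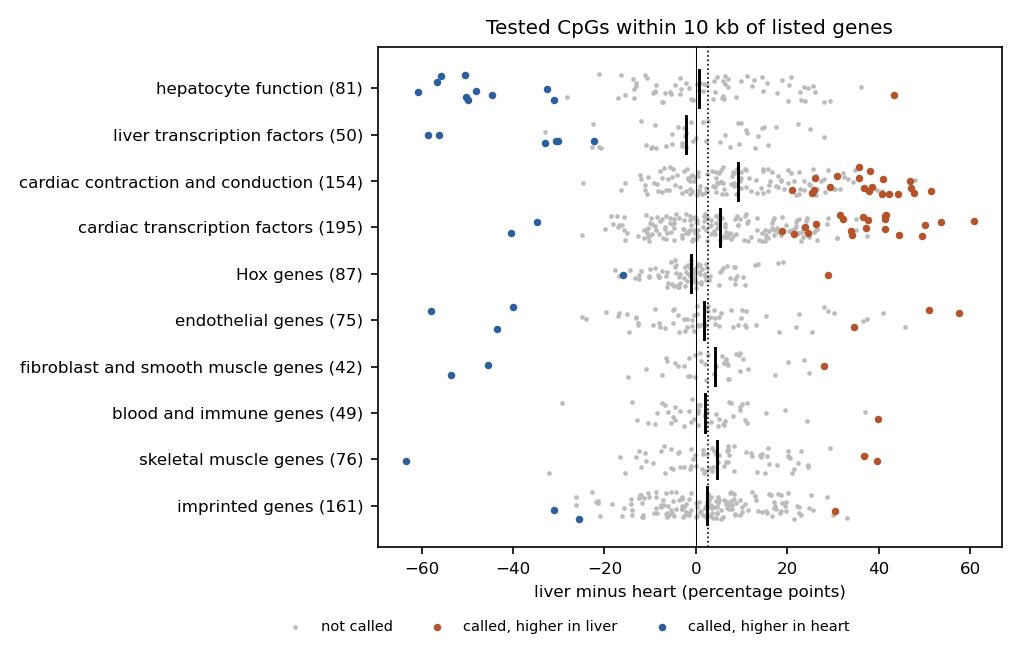
Difference between liver and heart at P20 (x axis, percentage points) of tested CpGs within 10 kb of the genes of 10 lists, with the number of tested CpGs in brackets. Orange and blue points were called, black ticks are list medians and the dotted line is the median of 2.69 points over all CpGs, and the calls lie on the left for the liver lists, except 1 CpG, and on the right for the cardiac lists, except 2 CpGs.

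Lists for other cell types of the organs and for other gene families had between 1 and 6 called CpGs each. Endothelial genes had 3 CpGs called in each direction among 75 tested, and 6 of 75 is 8.0%, beside 6.49% of all CpGs. The CpGs higher in heart were assigned to Eng but lie in a coding exon of its neighbour Fpgs, with 35.5% ± 10.9 (SD, n = 4) in liver and 93.5% ± 5.78 (SD, n = 3) in heart at the leading one, and those higher in liver were near Acvrl1 (82.1% and 24.6%), Stab1, in an exon of its neighbour Nt5dc2 (74.6% and 23.6%), and Vwf (42.1% and 7.42%). Fibroblast and smooth muscle genes had 2 CpGs called higher in heart, in Tagln (6.68% in liver, 60.3% in heart) and Acta2 (31.7% and 77.2%), which encode proteins of smooth muscle, and 1 higher in liver near Col1a1 (33.2% and 5.13%), among 42, or 7.14%. Blood and immune genes had 1 call among 49, or 2.04%, upstream of the haematopoietic factor Tal1 (56.6% and 16.7%). The part that blood, vessel or connective tissue cells have in the differences above was not tested.

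Skeletal muscle genes had 3 calls among 76, near Mybpc2 in the promoter of Fam71e1 (34.5% in liver, 97.9% in heart), near Myog in an intron of Ppfia4 (65.8% and 26.1%) and at the Tnni3 promoter beside Tnnt1. Imprinted genes, which are methylated on the copy from 1 parent, had 3 calls among 161, at H19 (51.1% and 82.2%), H13 (85.5% and 55.1%) and the promoter of Grb10 (9.06% and 34.7%). Hox genes, which set position along the body axis, had 2 calls among 87, with list medians of 10.2% in liver and 11.3% in heart. The shares of called CpGs in these last lists, 3.95%, 1.86% and 2.30%, lay below the 6.49% of all CpGs. With single libraries left out, the counts of either direction in these 6 lists were between 0 and 5. Of the leading CpGs named for them, those of Eng, Acvrl1, Stab1, Tagln and Mybpc2 kept their call in each of these fits and the others lost it in at least 1, with adjusted p up to 0.253.

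The called CpGs lay more often in introns than CpGs in general. In introns 999 of 11530 tested CpGs were called (8.66%), in intergenic sequence 809 of 13950 (5.80%), in non-coding exons and UTRs 80 of 1426 (5.61%), in promoters, taken as 1000 bp upstream of a start, 113 of 2208 (5.12%), and in coding exons 223 of 5049 (4.42%). By local density, the share was 6.87% at CpGs with up to 6 CpGs within 200 bp, 8.19% at 7 to 12, 5.11% at 13 to 20 and 2.45% above 20, where median levels were 24.2% in liver and 22.2% in heart. In every genic class and density class more CpGs were called higher in liver than in heart, with 69.9% to 79.5% of the calls. Over all called CpGs the share was 76.7%, and 67.9% with all libraries set to the same mean, which took the median difference from 2.69 to 0.246 points. The median distance to the nearest coding transcription start was 11316 bp for the CpGs higher in heart, 17213 bp for those higher in liver and 16762 bp for all tested.

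Short motifs of tissue factors were searched on both strands in windows of 300 bases centred on 3962 regions on assembled chromosomes. The letters TGTTTAC, bound by FOXA factors, were in 11 of the 131 regions higher in heart (8.40%), 14 of the 444 higher in liver (3.15%) and 3.96% of all regions. The letters GTTAAT of HNF1 were in 9.16%, 5.86% and 6.61%, and CAAAGTCC of HNF4 in 2.29%, 0.676% and 1.29%. For motifs of heart factors, CATTCC of TEAD was in 16.03% of the regions higher in heart, 21.6% of those higher in liver and 16.1% of all, AGATAA of GATA in 12.98%, 14.4% and 10.6%, and TAAAAATA of MEF2 in 2.29%, 2.70% and 1.44%. AAGTG of NKX2-5 was in 48.9%, 52.7% and 46.1%, AAGGTCA of the ERR receptors in 7.63%, 4.73% and 4.72%, and TTGCGCAA of C/EBP factors in 1, 0 and 5 regions. Each motif was counted on its own, so 1 window can hold several, and a match of letters is not a bound site.

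The mean level over CpGs with 10 values was higher in liver. It was 55.9% ± 0.986 (SD, n = 5) in liver and 53.5% ± 1.38 (SD, n = 5) in heart, a difference of 2.47 points (two-sided exact permutation test, p = 0.0238, where 0.00794 is the smallest p the design can give). Over all tested CpGs with a value the difference was 4.82 points, and with medians in place of means it was 4.59 points. Heart library 4, with 55.4% over the CpGs with 10 values, lay within the liver range of 54.5% to 56.9%, and the other heart libraries were at 52.0% to 54.4%.

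Earlier ages were not used for the calls. At the CpGs called higher in liver at P20 the median difference between the tissues was 14.8 points at P1, 20.7 at P5 and 26.1 at P15, and it was 37.9 at P20. At the CpGs called higher in heart it was -12.6, -15.5, -24.4 and -39.9. Over all tested CpGs it was -1.11, 2.43, 3.56 and 2.69. Of the 1705 CpGs higher in liver at P20, 76.3% had a difference of the same direction at P1 and 27.2% one of over 30 points. Of the 519 higher in heart these shares were 81.3% and 11.8%. Among all tested CpGs 45.7% had liver above heart at P1. Values at P20 are the largest of these in part because P20 chose the CpGs.

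The medians of the tissues themselves were as follows. At the CpGs higher in liver the median was 50.1% in E18 liver, 52.5% at P1, 60.3% at P15 and 67.2% at P20, and in heart 29.4% at P1, 27.8% at P15 and 24.8% at P20. At the CpGs higher in heart the liver median was 53.9% at E18, 54.8% at P1, 39.2% at P15 and 28.8% at P20, and the heart median 70.3%, 70.9% and 74.8% at P1, P15 and P20.

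**Figure D4:**
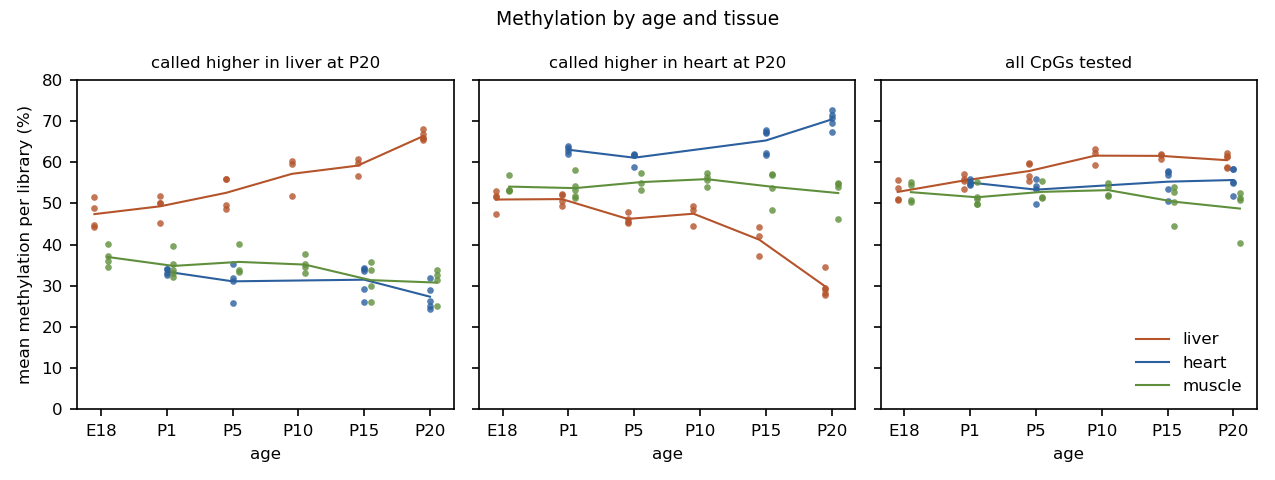
Mean methylation per library (y axis, %) by age (x axis) at the CpGs called higher in liver at P20, at those called higher in heart and at all tested CpGs, with a point for each library and lines through the means of liver (orange), heart (blue) and muscle (green). In the first 2 panels the liver line moves away from the heart line between P1 and P20 while the heart line stays within a narrower range.

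A change of the difference itself from P1 to P20 was tested by an interaction term, on libraries of which the P20 ones are those above. Of 34108 CpGs 1292 (3.79%) were called, with a difference that rose at 846 (2.48%) and fell at 446 (1.31%), and with all libraries set to the same mean the share that rose was 53.8% in place of 65.5%. On a logit scale 217 were called. Where the difference rose, the median liver level was 28.1% at P1 and 68.2% at P20, beside 56.0% and 33.9% in heart. Where it fell liver went from 54.1% to 19.2% and heart from 19.9% to 39.9%. Over all tested CpGs liver had 63.8% and 70.1% and heart 63.4% and 63.2%. The same P1 and P20 libraries chose the called CpGs, which in part sets these levels. In 76.1% of the called CpGs the liver mean had moved further than the heart mean, as it had in 58.7% of all tested CpGs.

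The named genes showed both courses. At the Hnf4a CpG liver was at 68.1% ± 8.75 (SD, n = 4) at E18 and 71.0% ± 9.30 (SD, n = 4) at P1, and heart at 79.8% ± 14.9 (SD, n = 4) at P1, so the difference was -8.78 points at P1 and -58.6 at P20 (change of -49.8 points, adjusted p = 0.0452). Itih1 likewise had 70.5% in liver and 73.9% in heart at P1 (change of -57.4 points, adjusted p = 0.0215). The Tead1 CpG was at 7.52% in liver and 21.4% in heart at P1 and at 46.6% and 5.00% at P20 (change of 55.5 points, adjusted p = 0.0217). Near Acvrl1, a receptor of BMP9 in endothelium, heart had 62.9% ± 17.9 (SD, n = 4) at P1, 19.3% at P5, 50.1% at P15 and 24.6% ± 6.87 (SD, n = 4) at P20, without a steady course, while liver had 64.5% at P1 and 82.1% at P20 (change of 56.0 points, adjusted p = 0.0277). The CpG in Tagln changed sides, with 43.9% in liver and 24.2% in heart at P1 and 6.68% and 60.3% at P20 (change of -73.2 points, adjusted p = 0.0069).

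Other differences were already present at P1, the first age of heart used here. At the single CpGs named next the interaction was not called. The Prdm16 CpG had 61.2% in liver at E18 and 56.5% at P1 beside 16.6% in heart at P1, the Ryr2 CpG had 46.2% and 7.86% at P1, the Ckm promoter had 65.8% and 20.8%, and the Tnni3 promoter had 40.6% ± 6.88 (SD, n = 4) and 2.70% ± 5.41 (SD, n = 4). Among the regions, that near Pkp4 had 66.7% in liver at E18, 67.4% at P1 and 70.9% at P20, and 8.87% and 13.6% in heart at P1 and P20. The Gse1 region, in contrast, had 5.99% ± 3.21 (SD, n = 4) in liver at E18 and 5.27% at P1, then 21.9% at P5, 38.6% by P10 and 52.9% at P20, while heart had 11.6% at P1 and 15.3% at P20. The Prdm10 region had 70.7% ± 3.66 (SD, n = 4) in liver and 79.6% ± 3.43 (SD, n = 4) in heart at P1, and 35.4% and 78.3% at P20. Its CpG at position 31123805 passed the interaction test (change of -41.0 points, adjusted p = 0.0487). The Rbm47 region had 60.7% in liver at P1 and 71.0% at P10, then 25.3% at P15 and 29.5% at P20, with 91.9% to 96.0% in heart at P1, P5, P15 and P20. No interaction was fitted for regions.

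**Figure D5:**
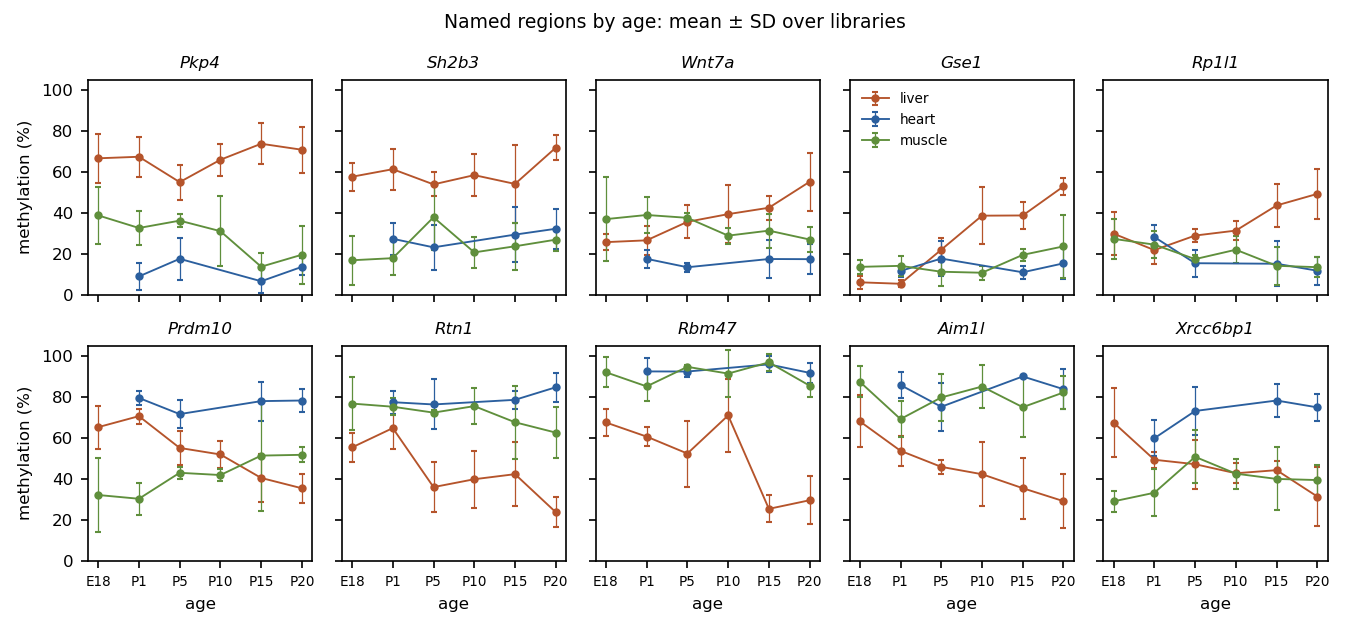
Methylation (y axis, %, mean ± SD over libraries) of the 10 named regions by age (x axis) in liver (orange), heart (blue) and muscle (green). The Pkp4 and Sh2b3 regions are apart in liver and heart at P1, the Gse1 liver line starts at 5.99% at E18 and ends at 52.9%, and the Prdm10 liver line ends at 35.4%.

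Muscle, the third tissue of the time course, was set beside both at P20. Of the called CpGs 1338 of those higher in liver had at least 2 muscle values, with medians of 66.1% in liver, 24.1% in heart and 26.9% in muscle. Muscle was closer to heart than to liver at 1087 of them (81.2%), against 57.4% of 24297 CpGs in general. It lay below both tissues at 517 of the 1338 and 11505 of the 24297, and above both at 34 and 5372. Muscle library 2 had a mean of 40.4% over 12484 tested CpGs, and the other P20 muscle libraries had 50.9% to 52.5% over 21565 to 24439. The part of these lower muscle levels in the shares was not tested. At 379 CpGs higher in heart the medians were 28.8% in liver, 71.6% in heart and 56.5% in muscle, and muscle was closer to heart at 227 (59.9%). At single genes, the leading CpG of Prdm16 had 11.04% in P20 muscle and the Ckm promoter 20.8%, on the side of heart, whereas the CpGs of Trf (73.3%), Asl (85.5%) and Klf15 (94.7%) were high in muscle as in heart. The CpG of Ass1, with 32.5% in muscle, was instead closer to its liver mean than to its heart mean. The Prdm10 region lay between the tissues with 51.8% ± 3.74 (SD, n = 4).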

How the data were processed

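Whole liver, heart and muscle of mice (C57BL/6 in the labels, C57BL/6J in the study's methods) were profiled by RRBS. Per the labels and the study's methods, the authors aligned reads to mm9 with Bismark 0.7.6 and Bowtie2, counted methylated and unmethylated reads at each CpG, set values with few reads to missing, removed CpGs missing in many libraries or low in all libraries of a tissue, and deposited 1 table of methylation fractions per tissue. Fractions are given here as percentages. Read counts per CpG were not used here, so precision rests on replicate spread. The labels name no animal for a library, and equal replicate numbers were not taken as pairs. The authors also deposited targeted bisulfite values and mm10 tables, and the former were not used here. In all, 55 table columns were not used, some of them because they matched no sample.

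CpGs with at least 3 values in each P20 group were fitted with limma 3.58.1 in R 4.3.3 on fractions, liver minus heart, with the 5 libraries of each tissue. P-values were adjusted by Benjamini-Hochberg over all CpGs, and called meant adjusted p of at most 0.1 and a difference over 5 points. Region means over chains with gaps of at most 200 bp and at least 3 CpGs, and the interaction of tissue with age (P1, P20), were fitted in the same way. Genic context came from an mm9 gene annotation, 104 tested positions were not a CpG in the reference and got no context, and a CpG belonged to a gene in its body or within 10000 bp. Named items were the 10 largest differences each way among called CpGs with 10 values and no overlap (1 per gene), up to 4 genes per list with the most called CpGs, and the 5 called regions each way with the most called CpGs, without chromosome 18 for single CpGs and regions. Other genes are marked as chosen after their values were seen. The members and gene lists were chosen with earlier results of these data known. Alternatives were a logit scale, centred libraries, complete CpGs only, other thresholds, a window of 2000 bp around genes, unmoderated tests, a fit of all ages, mm10 tables, a replicate block and single libraries left out. Leaving out the 3 sparsest libraries was added after the data were seen. The fits were tested on simulated data. Python 3.11.15, pandas 2.3.3, scipy 1.17.1, pysam 0.24.0, samtools 1.23.1 and matplotlib 3.10.9 were used. The values of 1 further CpG among the Hox genes are not reported here.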

Additional observations from a re-analysis of the deposited data

Results flagged for a closer look

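In groups of 4 or 5 libraries, 1 library stood apart from the others by Dixon's criterion at several named items. Of 98 groups examined, chance gives such a gap in about 1 in 20. At the Rp1l1 CpG heart library 2 had 7.89% where the others had 0%, and at Kcnj12 and Vps4b heart library 5 had 81.8% and 90.0% where the others had 40.0% to 46.2% and 62.5% to 70.0%. Liver library 5 stood apart at the Adamts2 CpG (17.1%, others 27.8% to 31.4%), the Pkp4 region (54.1%, others 74.7% to 77.8%) and the Rtn1 region (36.3%, others 18.9% to 22.2%). Heart library 2 stood apart at the Rbm47 region (99.1%, others 89.3% to 89.5%) and the Acvrl1 CpG (14.3%, others 27.3% to 28.6%). At the CpG of Klf15 liver library 1 had 80% beside 21.3% to 30.3%, and at that of Mybpc2 liver library 2 had 66.7% beside 23.5% to 24.0%.

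The difference between liver and heart changed from P1 to P20 at 1292 of 34108 CpGs (3.79%) by the limma interaction, and at 16 of the 51 named CpGs, which were chosen for their difference at P20. It rose by 64.5 points at Rp1l1 (adjusted p = 0.0134), 52.9 at Id2 (0.0350), 39.0 at Fcrla (0.0160), 55.5 at Tead1 (0.0217), 39.9 at the CpG shared by Hoxc11 and Hoxc12 (0.0424), 56.0 at Acvrl1 (0.0277) and 56.2 at Tal1 (0.0442). The change was -30.3 points at Dact1 (adjusted p = 0.0731), -41.0 at Prdm10 (0.0487), -43.6 at Vps4b (0.0876), -44.2 at Rragc (0.0458), -57.4 at Itih1 (0.0215), -49.8 at Hnf4a (0.0452), -73.2 at Tagln (0.0069), -56.9 at Mybpc2 (0.0355) and -34.5 at Grb10 (0.0696).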

How the results depend on the processing

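Of 34267 CpGs 2224 were called, and of the 2440 CpGs with 10 values 158 were. The 2224 became 25 on a logit scale and 1227 without moderation and with Storey q-values. They became 1201 with adjusted p limited to 0.05 and 1090 to 2096 with single libraries left out. Of 3975 regions 575 were called, and of 244 regions of CpGs with 10 values 35 were. The 575 became 366 on a logit scale, 242 at a limit of 30 points and 361 with adjusted p limited to 0.05. With single libraries left out they became 389 to 556. The 1292 CpGs of the interaction became 217 on a logit scale, 665 with adjusted p limited to 0.05 and 876 to 1294 with single libraries left out. Fewer CpGs entered where 10 values were asked for, and for the other settings the cause was not tested. The mean difference of 2.47 points was 2.09 to 2.95 with single libraries left out, 4.82 over all tested CpGs with a value and 4.59 with medians in place of means. With replicate numbers as a block the counts were 0 CpGs (4719 at an unadjusted p under 0.05), 386 regions and 194 CpGs of the interaction, and sign flips over the 5 numbers gave an exact p of 0.125 for the mean difference of 2.47 points. Deviations of same-numbered libraries had correlations of -0.0552 to 0.0349, which were in 0 of 5 cases the best match. Libraries of an animal need not deviate alike in liver and heart, so these correlations cannot decide whether the numbers are pairs. Whether same-numbered libraries share an animal is not given in the labels. The 10 named regions kept their call on the logit scale, with the block and with each library left out. Of the 51 named CpGs, 49 lost their call on the logit scale and 51 with the block. Of 20 gene list counts, 6 moved by over 1.5 times with a window of 2000 bp around genes, 4 with a limit of 30 points and 17 with the block. With the window of 2000 bp the called CpGs were 8 higher in heart for hepatocyte function, 6 for liver transcription factors, and 16 and 20 higher in liver for cardiac contraction and cardiac transcription factors. No named CpG or region changed the sign of its difference in these fits. A depth per CpG could not be set beside any value.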
